A study of Mus musculus with 8 samples.

Results

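The 38 genes described here encode the enzymes that remove reactive oxygen species (ROS), the glutathione and thioredoxin systems that supply them with electrons, and regulators of their transcription. They were listed by name for their known functions, with earlier results of these data known. A probe belonged to the set if the array's annotation gave it 1 of these symbols. Of the 38 genes, 37 had 61 probes among the 25697 probes and 18138 symbols of the array table; Gsr (glutathione reductase) was not found under its symbol. A probe was called detected at a detection p-value under 0.01 and entered the tests when at least 1 strain had it detected in all 4 mice. On this rule 50 of the 61 probes, of 36 genes, were tested, and the other 11 probes are named with their genes.

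RNA came from untreated primary skin fibroblasts of passage 1, with 1 Illumina MouseRef-8 v2.0 array for each of 8 mice aged 12 months. The 4 Nd2-mutant mice were of the conplastic strain C57BL/6J-mtALR/LtJ and the 4 control mice of C57BL/6J-mtAKR/J, so that all shared a C57BL/6J nuclear genome and carried the mitochondrial DNA of another strain. The mutant mitochondrial DNA holds a point mutation in Nd2, a subunit of respiratory complex I; in the study this strain served as a model of low ROS, and the control was itself conplastic. Mice 28 and 32 (males) and 34 and 35 (females) were mutant, and mice 16 and 17 (males) and 15 and 37 (females) were controls. Intensities are linear, quantile normalized and background subtracted, and values of single mice follow the order 28, 32, 34 and 35 for Nd2-mutant and 15, 16, 17 and 37 for control fibroblasts.

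As background, superoxide dismutases turn superoxide into hydrogen peroxide, which catalase, the glutathione peroxidases and the peroxiredoxins remove. Peroxidases are recharged by glutathione or by thioredoxin, and thioredoxin by the selenoenzymes thioredoxin reductase 1 and 2, with NADPH as the source of electrons. In unstressed cells KEAP1 keeps the transcription factor NRF2 (gene Nfe2l2) low, and oxidants release it to act on genes with an antioxidant response element.

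The fibroblast label was checked on 10 marker genes, of which all were detected and 10 of 12 probes were detected on all 8 arrays. The array of control mouse 15 stood apart, with a mean correlation of 0.934 with the others against 0.963 to 0.974 for the remaining 7, and it gave the lowest of the 8 values for 22 of the 50 tested member probes (44%, against 31.4% of all tested probes). Control mouse 37 was lowest for 14 (28%, against 9.25%). Detected probes numbered 10973 to 11350 on the mutant and 10663 to 10837 on the control arrays. Macrophage markers summed to 2111 in Nd2-mutant mouse 35, where 13 of 16 probes were highest, and to 645 or less in each other mouse; 4 of the 16, both probes of Ptprc and 1 each of Csf1r and Emr1, were detected on no array. Endothelial markers summed to 617 in control mouse 15 and to 133 to 382 in the others, and keratinocyte markers to at most 1176 in any mouse (972 in control mouse 15). Smooth muscle and pericyte markers summed to 23105 in control mouse 15, the lowest, and to 37158 in control mouse 37, the highest. These sums were mostly of the bright Acta2 probes, and the markers did not share a direction in control mouse 15. Acta2 probes at 540 and 780 were there the lowest of the 8 mice, while Myh11 (227) and Des (136) were the highest. Adipocyte and melanocyte markers summed to 41 or less. The part of these arrays and markers in the results was not tested beyond leaving mice out. In such cultures, fewer cells of a type and less RNA per cell cannot be told apart.

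The first question was whether the antioxidant genes differed between fibroblasts of the strain chosen for low ROS and the control. None of the 50 tested member probes passed an adjusted p of 0.05 in limma with Benjamini-Hochberg adjustment, and 0% of all 10414 tested probes did; the smallest adjusted p of a member was 0.639. An unadjusted p under 0.05 was reached by 4 member probes (8%, against 7.63% of all tested probes). Of these, 2 were higher in Nd2-mutant fibroblasts (Gstm2 and Gstt1; 4.5% of all probes) and 2 were lower (Txnrd1 and Txnrd2; 3.13% of all probes). The strains did not overlap for 4 member probes, Gpx7 and 1 probe of Prdx2 higher and Txnrd1 and Txnrd2 lower, which is 8% against 4.37% of all tested probes. The share by unadjusted p was thus near that of the array as a whole.

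The direction of the member probes leaned to higher values in Nd2-mutant fibroblasts. Of the 50 probes, 35 were higher and 15 lower (70% higher, against 50.2% of all tested probes), and their median log2 difference was 0.13 against 0.00. Since the genes were chosen with earlier results of these data known, these shares are a description and not a test of the set. Without control mouse 15 the counts were 30 and 20 and the median 0.08. Over all 10414 tested probes that fit gave 5019 higher and 5395 lower and a median of -0.009. In it 3 member probes had an unadjusted p under 0.05 in limma (6%, against 7.79% of all tested probes). The count of 4 probes was 2 without Nd2-mutant mouse 28, Nd2-mutant mouse 32 or control mouse 16, when 4.43%, 6.55% and 4.15% of all probes passed. It was 1 without Nd2-mutant mouse 35 (5.32% of all probes) and 8 without control mouse 17 (13.8%). Only 26 of the 50 probes kept their direction under every alternative processing and choice of mice that was run.

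**Figure D1:**
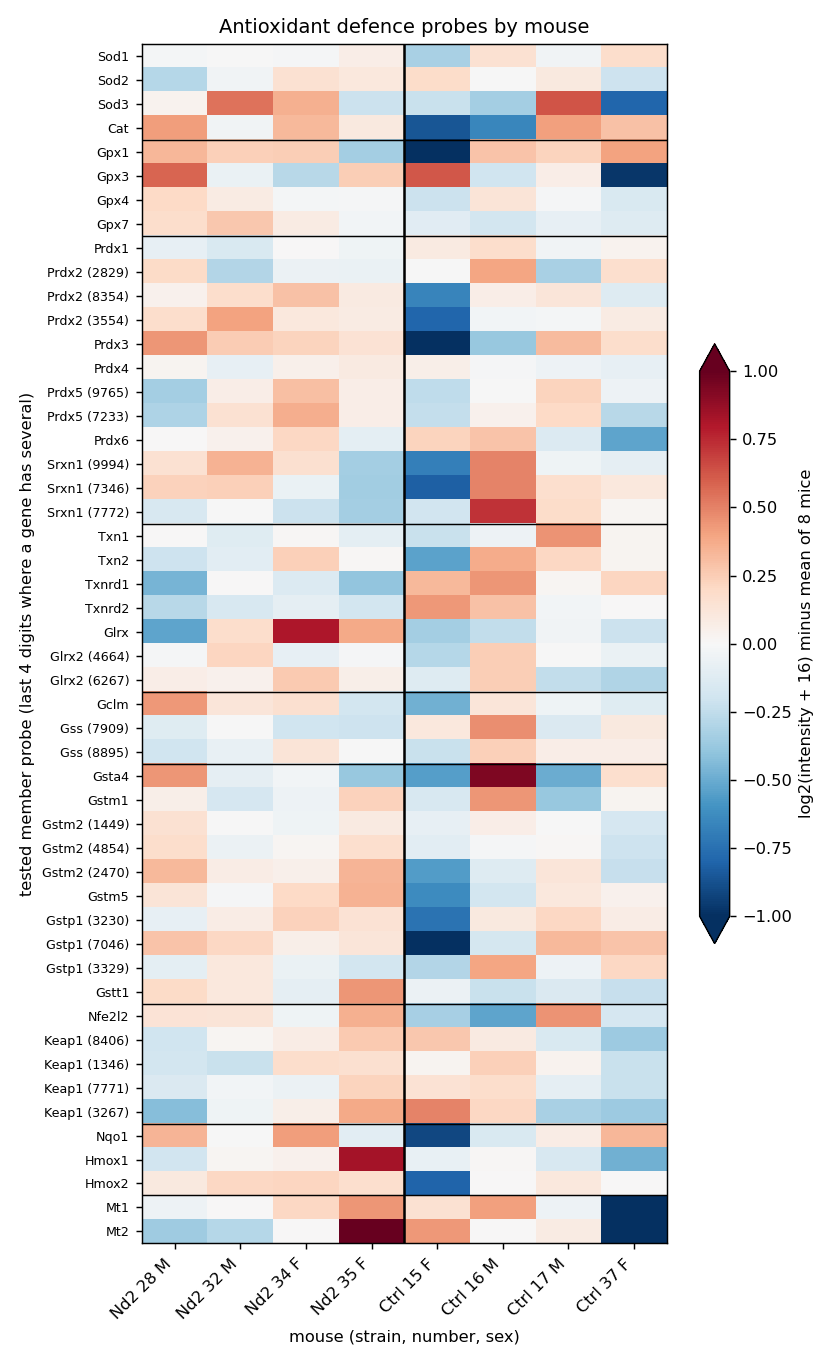
Each row is 1 of the 50 tested member probes and each column 1 of the 8 mice, with colour giving log2(intensity + 16) minus the mean of the 8 mice (red higher, blue lower, cut at 1 and -1); lines separate the gene groups and the strains. Control mouse 15 holds many of the deepest blue cells, and the Txnrd1 and Txnrd2 rows are bluer in the Nd2-mutant than in the control columns.

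**Figure D2:**
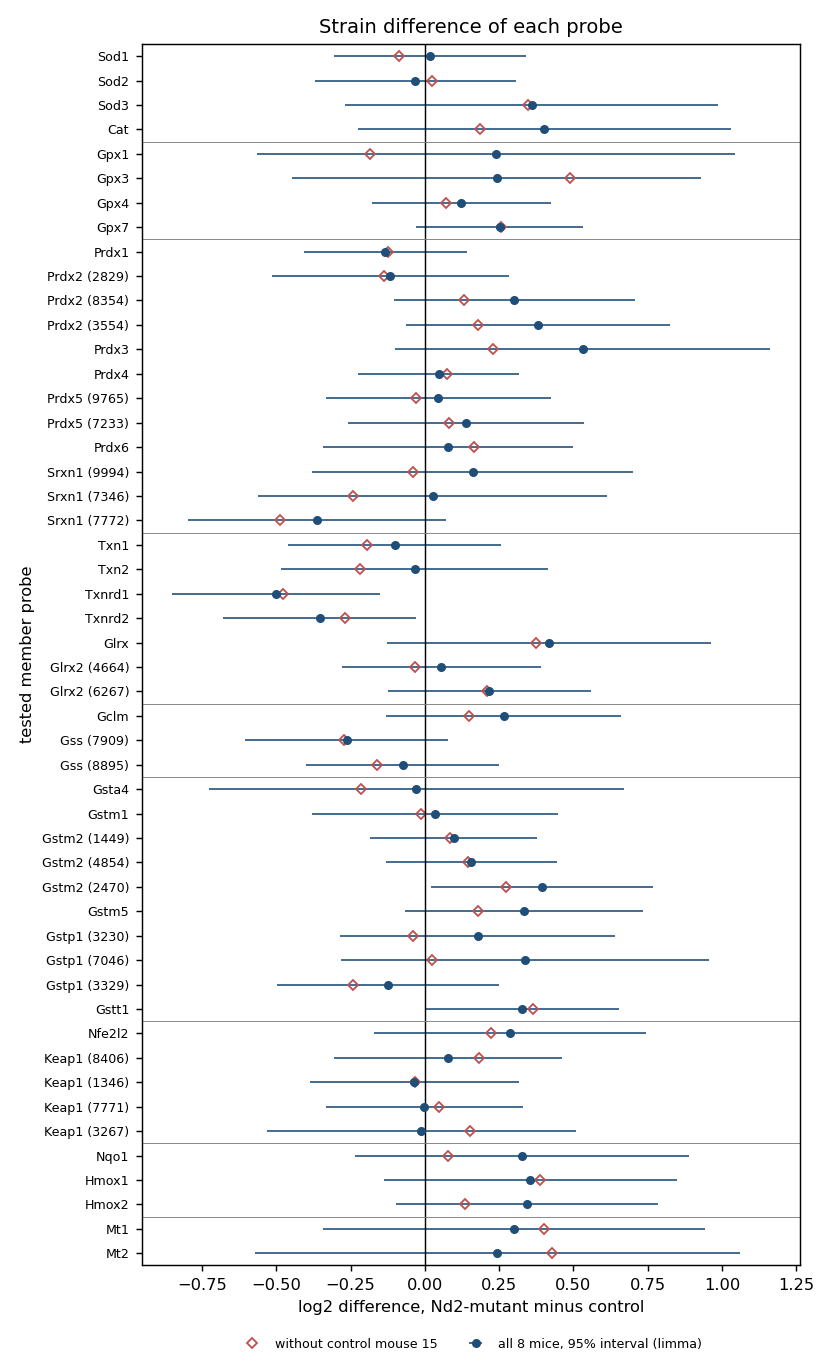
Points give the log2 difference of each tested member probe (Nd2-mutant minus control, 4 mice each) with its 95% interval from limma, and open diamonds give the difference without control mouse 15. Most points lie right of 0, and the intervals of Txnrd1, Txnrd2, Gstt1 and 1 Gstm2 probe exclude 0.

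In the thioredoxin system the reductases were lower in Nd2-mutant fibroblasts and the thioredoxins differed by less than their spread. Txnrd1, the cytosolic thioredoxin reductase, had intensities of 18.1, 31.3, 26.8 and 19.8 in Nd2-mutant and 43, 48, 31.9 and 38.7 in control fibroblasts. Every mutant value lay below every control value, although mutant mouse 32 and control mouse 17 were close. The difference on the scale of log2(intensity + 16), which understates changes of dim probes, was -0.50 (SE 0.16, limma unadjusted p = 0.00967, adjusted p = 0.639), a fold of 0.707. The exact permutation test over mice gave 0.0286, the smallest p that 4 against 4 values allow. Without control mouse 15 the difference was -0.48.

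Txnrd2, the mitochondrial reductase, had intensities of 46.1, 51.4, 54.6 and 50.4 in Nd2-mutant and 85.8, 76.2, 57.8 and 59.7 in control fibroblasts. The mutant mice lay within a narrow range below all controls, and control mice 15 and 16 were the furthest above it. The log2 difference was -0.35 (SE 0.15, limma unadjusted p = 0.0358, adjusted p = 0.639), and -0.27 with a limma unadjusted p = 0.0668 without control mouse 15. Txnrd1, Txnrd2 and Prdx1 are among the genes that the study listed as lower, a list made from these same arrays and so no independent evidence of their direction. That list holds more than 1 entry for Txnrd2, while only 1 probe carried its symbol here. Txnrd1 and Txnrd2 kept their direction in each fit that left out 1 mouse.

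**Figure D3:**
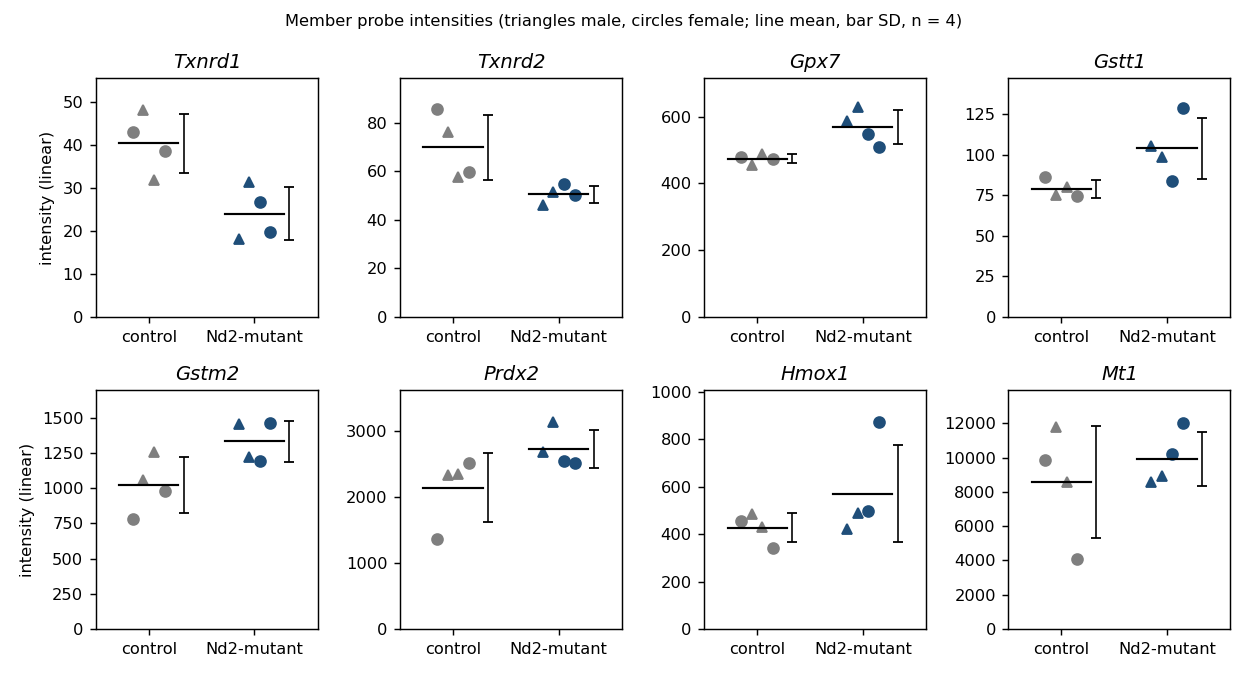
Linear intensities of 8 member probes by strain, with 1 point per mouse (triangles males, circles females), a line at the mean and a bar for the SD (n = 4); the Gstm2 and Prdx2 panels show the probe of each with the largest difference. Txnrd1, Txnrd2, Gpx7 and Prdx2 show no overlap of the strains, and single mice stand apart for Hmox1 (mutant mouse 35) and Mt1 (control mouse 37).

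The thioredoxins themselves, which reduce protein disulfides, showed no such separation. Txn1 (cytosolic) averaged 416 ± 21.1 in Nd2-mutant and 454 ± 98.8 in control fibroblasts (SD, n = 4), with a 95% interval of the log2 difference of -0.46 to 0.26; its other 2 probes were detected on no array. Txn2 (mitochondrial) had 160.4, 173, 224 and 189.8 in Nd2-mutant and 125, 248, 219 and 192 in control fibroblasts, with full overlap (log2 difference -0.03, SE 0.20). Glutaredoxins reduce protein-glutathione disulfides. Glrx reached 659.8, 1082, 1689.7 and 1250.0 in Nd2-mutant and 753, 804, 936 and 821 in control fibroblasts, so that 3 of 4 mutant mice were above every control and mouse 28 was below them all (log2 difference 0.42, SE 0.25, limma unadjusted p = 0.119). The 2 tested probes of Glrx2 overlapped between the strains and its remaining probe was not detected.

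The promoter of Txnrd1 holds a match to the antioxidant response element, and the promoters of 3 other members on the NRF2 side of the system are shown beside it. The motif TGACNNNGC was searched on both strands of the RefSeq promoters of build GRCm38.p6, from 250 bases before to 50 after the start of each gene. It occurred in 8 of the 32 members with a promoter entry (25%) and in 12.4% of all 32851 promoters. The share of members counts genes with any matching entry, while the share of all promoters counts single entries. These shares are therefore not alike and do not show an excess among the members. The 8 were Nfe2l2, Srxn1, Gstm5, Gclm, Prdx1, Mt2, Txnrd1 and Sod1, and in Prdx1 and Mt2 the match overlapped an AP-1 site (TGACTCA, in 5.2% of all promoters). Stretches around the match, which is in capitals, were taken from chr10:82859089-82859147 (Txnrd1, 92 bases before the start), chr4:116685441-116685499 (Prdx1), chr3:122245398-122245456 (Gclm) and chr3:107895787-107895845 (Gstm5), all on the plus strand; those of Txnrd1, Prdx1 and Gclm hold the motif on the minus strand.
Txnrd1: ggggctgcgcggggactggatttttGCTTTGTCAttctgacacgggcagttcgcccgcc
Prdx1: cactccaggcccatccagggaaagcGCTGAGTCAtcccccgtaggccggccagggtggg
Gclm: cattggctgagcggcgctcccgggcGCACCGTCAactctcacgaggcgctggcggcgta
Gstm5: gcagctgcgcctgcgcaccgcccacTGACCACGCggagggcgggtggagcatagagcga
These 4 genes did not share a direction. Txnrd1 and Prdx1 were lower and Gclm and Gstm5 higher in Nd2-mutant fibroblasts, and only the Txnrd1 difference reached an unadjusted p under 0.05 in limma. A match of letters is a description of the window and was not tested as a binding site.

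Among the glutathione peroxidases, all 4 tested probes were higher in Nd2-mutant fibroblasts, and 1 of them without overlap, against 50.2% and 4.37% of all tested probes, and 2 of the 4, Gpx1 and Gpx3, changed sign when mice were left out or weighted. Gpx7, a peroxidase of the endoplasmic reticulum, had intensities of 588, 629, 549 and 509 in Nd2-mutant and 479, 455, 488 and 473 in control fibroblasts. The control mice were closely grouped and the mutant mice all lay above them. Its log2 difference was 0.25 (SE 0.13, limma unadjusted p = 0.0746, exact permutation p = 0.0286) and 0.26 without control mouse 15.

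Gpx1, the main cytosolic glutathione peroxidase, had 2072, 1938, 1948 and 1289 in Nd2-mutant and 613, 2003, 1918 and 2173 in control fibroblasts. Mutant mouse 35 and control mouse 15 were far below the other 6 mice, and the log2 difference turned from 0.24 (SE 0.36) to -0.19 without control mouse 15. Gpx4, which reduces lipid peroxides, averaged 455 ± 34.4 against 417 ± 46.8 (SD, n = 4; 95% interval of the log2 difference -0.18 to 0.42), and its second probe was not detected on any array. Gpx3, the secreted form, ranged from 3361 to 6115 in Nd2-mutant and from 2072 to 6276 in control fibroblasts.

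Peroxiredoxins are thiol peroxidases, most of which thioredoxin recharges. Together with sulfiredoxin they gave 9 higher and 3 lower probes, where 50.2% of all tested probes were higher. None had an unadjusted p under 0.05 in limma (7.63% of all tested probes). Without control mouse 15, 6 were higher and 6 lower, where 5019 of all 10414 tested probes were higher. Prdx1 (cytosolic) had 4575, 4342, 4857 and 4698 in Nd2-mutant and 5141, 5459, 4721 and 4953 in control fibroblasts. The strains overlapped only through control mouse 17, which lay below mutant mouse 34, and the log2 difference was -0.13 (SE 0.12, limma unadjusted p = 0.307). A second Prdx1 probe, detected on 6 arrays, was not tested.

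Prdx2 had 3 tested probes that did not share a direction. The brightest had 2682, 3134, 2547 and 2518 in Nd2-mutant and 1359, 2333, 2339 and 2506 in control fibroblasts, with mutant mouse 35 just above control mouse 37 and control mouse 15 far below the rest. Its log2 difference of 0.38 (SE 0.20, limma unadjusted p = 0.0857) was 0.18 without control mouse 15. The other 2 probes gave 0.30 (SE 0.18), or 0.13 without control mouse 15, and -0.12 (SE 0.18).

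Prdx3, a mitochondrial peroxiredoxin, had the largest difference of the members towards higher values. Its intensities were 360.4, 314, 307 and 289.6 in Nd2-mutant and 107, 196, 328 and 296 in control fibroblasts, so that control mice 15 and 16 lay below all others while control mice 17 and 37 lay within the mutant range. The log2 difference of 0.53 (SE 0.28, limma unadjusted p = 0.0902) was 0.23 without control mouse 15. Prdx4, of the endoplasmic reticulum, averaged 2654 ± 135 against 2568 ± 109.6 (SD, n = 4; 95% interval of the log2 difference -0.22 to 0.32). The 95% intervals of both Prdx5 probes (-0.33 to 0.42 and -0.26 to 0.54) and of Prdx6 (-0.34 to 0.50) also included 0; the other Prdx6 probe was not tested.

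Srxn1, sulfiredoxin, restores over-oxidised peroxiredoxins and is a known NRF2 target. Its brightest probe had 499, 556, 479.7 and 437 in Nd2-mutant and 486, 931, 638 and 565 in control fibroblasts, and control mouse 16 stood high. The log2 difference was -0.36 (SE 0.20, limma unadjusted p = 0.0924), and -0.49 with a limma unadjusted p = 0.0223 without control mouse 15. The other 2 probes gave 0.16 (SE 0.24) and 0.03 (SE 0.27), with control mouse 15 lowest for both, and without it they gave -0.04 and -0.24.

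The enzymes that act on superoxide and hydrogen peroxide directly were within their spread. Sod2, the mitochondrial superoxide dismutase, had 1385, 1657, 1879 and 1824 in Nd2-mutant and 1929, 1685, 1811 and 1461 in control fibroblasts. These ranges overlapped, with mutant mouse 28 the lowest and control mouse 15 the highest of all mice, and the 95% interval of the log2 difference was -0.37 to 0.31. Sod1, the cytosolic form, averaged 1949 ± 55.3 against 1945 ± 296 (SD, n = 4; interval -0.31 to 0.34), and the secreted Sod3 285 ± 69 against 229.7 ± 109 (interval -0.27 to 0.99). Cat, catalase, had 148, 104, 138 and 116 in Nd2-mutant and 51.9, 62, 147 and 135 in control fibroblasts; control mice 15 and 16 lay below all others and control mice 17 and 37 within the mutant range (log2 difference 0.40, SE 0.28, limma unadjusted p = 0.183, and 0.18 without control mouse 15).

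Of glutathione synthesis, the catalytic subunit of the rate-limiting ligase, Gclc, could not be tested, since its probe was detected on 2 of 8 arrays with intensities from 1.88 to 11 in Nd2-mutant and from 2.71 to 15.6 in control fibroblasts. Its modifier subunit Gclm had 635, 508, 522 and 409 in Nd2-mutant and 329.7, 507, 451 and 426 in control fibroblasts. Mutant mouse 28 was highest, mutant mouse 35 lay among the controls, and the log2 difference was 0.27 (SE 0.18, limma unadjusted p = 0.166), or 0.15 without control mouse 15. The 2 tested probes of Gss, glutathione synthetase, had 95% intervals of -0.60 to 0.08 and -0.40 to 0.25 for the log2 difference, and the remaining probe was not tested.

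Glutathione S-transferases attach glutathione to reactive compounds. Of their 10 tested probes, 8 were higher in Nd2-mutant fibroblasts, against 50.2% of all tested probes. Of these 8, 2 had an unadjusted p under 0.05 in limma (7.63% of all tested probes). Without control mouse 15, 6 of the 10 were higher, against 5019 of all 10414 tested probes. Gstt1 had 105, 98.5, 83.8 and 129 in Nd2-mutant and 86.2, 75.2, 79.9 and 74.5 in control fibroblasts, where only mutant mouse 34 lay among the controls (log2 difference 0.33, SE 0.15, limma unadjusted p = 0.0488, adjusted p = 0.639). Without Nd2-mutant mouse 35, the highest, the difference was 0.23 with a limma unadjusted p = 0.152.

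Gstm2 had 3 tested probes, of which 1 had 1452, 1218, 1194 and 1463 in Nd2-mutant and 778, 1056, 1260.2 and 983 in control fibroblasts. Control mouse 17 overlapped the mutant mice and control mouse 15 was lowest. The log2 difference was 0.39 (SE 0.17, limma unadjusted p = 0.0406), 0.27 with an unadjusted p = 0.0857 without control mouse 15 and 0.35 with an unadjusted p = 0.1 without Nd2-mutant mouse 35. The other 2 probes of the gene, both brighter, gave 0.10 (SE 0.13) and 0.16 (SE 0.13).

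Gstm5 had 340.4, 307, 359 and 399 in Nd2-mutant and 195, 271, 335 and 320.3 in control fibroblasts, with control mouse 15 far below and control mice 17 and 37 inside the mutant range (log2 difference 0.33, SE 0.18, and 0.18 without control mouse 15). Gstm1 averaged 324 ± 40.5 against 322 ± 84.2 with its tested probe, a second not being tested, and Gsta4 37.3 ± 13 against 42.4 ± 30.1 (SD, n = 4). The 3 Gstp1 probes had 95% intervals of -0.28 to 0.64, -0.28 to 0.96 and -0.50 to 0.25. Gstm and Gstp genes have close copies in the genome, and whether a probe also binds a copy was not tested.

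The strains overlapped for both regulators of the response. Nfe2l2 (NRF2) had 137, 136, 119 and 162 in Nd2-mutant and 94.6, 80.6, 173 and 108 in control fibroblasts, and control mouse 17 was the highest and control mouse 16 the lowest of all 8 (log2 difference 0.29, SE 0.21, limma unadjusted p = 0.194); a second probe was not detected. Keap1 had 4 tested probes. Its brightest had 245, 287, 300.2 and 344 in Nd2-mutant and 346, 303, 255 and 217 in control fibroblasts, and the 95% intervals of the 4 were -0.30 to 0.46, -0.39 to 0.32, -0.33 to 0.33 and -0.53 to 0.51.

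The common reporters of NRF2 activity were spread within the strains. Nqo1, a quinone reductase, had 56.6, 41.4, 60.8 and 37.3 in Nd2-mutant and 14.5, 35.6, 44.6 and 56.2 in control fibroblasts, control mouse 15 being the lowest (log2 difference 0.33, SE 0.25, and 0.08 without that mouse); a second probe was not detected. Hmox1, inducible heme oxygenase, had 421, 488, 498 and 872 in Nd2-mutant and 457, 486, 429 and 340.3 in control fibroblasts. Mutant mouse 35 was far above the rest and the other 3 mutant mice lay within or just above the control range.

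The Hmox1 log2 difference was 0.35 (SE 0.22, limma unadjusted p = 0.14) with all mice and 0.14 without mouse 35. That mouse also had the macrophage marker sum of 2111, against 244 to 645 in the others, and macrophages are known to express Hmox1; their part in the difference was not tested. Hmox2, the constitutive form, had 241, 262, 263 and 253 in Nd2-mutant and 122, 224, 243 and 225 in control fibroblasts, a difference of 0.34 (SE 0.20) that was 0.14 without control mouse 15, the lowest by far.

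The metallothioneins, cysteine-rich proteins that bind zinc and copper and scavenge oxidants, shared their extremes. Mt1 had 8572, 8914, 10223 and 12028 in Nd2-mutant and 9841, 11761, 8572 and 4104 in control fibroblasts, and Mt2 had 33.8, 36, 47.9 and 122 in Nd2-mutant and 69.8, 47.8, 51.2 and 15.6 in control fibroblasts. Both were highest in mutant mouse 35 and lowest in control mouse 37, with the other mice overlapping. The log2 differences were 0.30 (SE 0.29) for Mt1 and 0.24 (SE 0.37) for Mt2, and without Nd2-mutant mouse 35, the mouse with the macrophage marker sum of 2111, they were 0.20 and -0.09. Without control mouse 15 they were 0.40 and 0.43.

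Metallothionein genes are known targets of the zinc sensor MTF1 through metal response elements, and their promoters are shown for that motif. Its forms TGCACNC and TGCGCNC were searched on both strands and occurred in 11 of the 32 members with a promoter entry (34.4%) and in 25.7% of all promoters. Here too the first share counts genes with any matching entry and the second counts single entries, so they are not alike. Stretches of the RefSeq promoters (GRCm38.p6) were taken from chr8:94172385-94172584 for Mt2 and chr8:94179041-94179088 for Mt1, on the plus strand, with the matches in capitals. The stretches hold only matches before the start. Further matches lay after it, at positions 2 and 20 for Mt1 and at position 4 for Mt2.
Mt2: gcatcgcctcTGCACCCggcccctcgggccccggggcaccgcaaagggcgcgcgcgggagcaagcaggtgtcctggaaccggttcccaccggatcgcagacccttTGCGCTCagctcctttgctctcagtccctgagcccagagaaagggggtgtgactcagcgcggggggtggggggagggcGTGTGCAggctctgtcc
Mt1: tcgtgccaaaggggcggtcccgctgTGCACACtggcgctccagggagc
The Mt2 stretch holds 3 matches and, in lower case, the AP-1 site with the overlapping antioxidant response element.

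The sexes were compared with strain as a term in the fit. Of the 50 member probes, 2 had an unadjusted p under 0.05 (8.31% of all tested probes did) and the smallest adjusted p of a member was 0.536 in limma. Both were Srxn1 probes and were higher in males, by log2 0.56 (SE 0.21, limma unadjusted p = 0.0227) and 0.48 (SE 0.20, limma unadjusted p = 0.0409). The third Srxn1 probe gave 0.37 (SE 0.17, limma unadjusted p = 0.0509). The intensities of the first probe were 189.7, 189.9, 151 and 121 in Nd2-mutant and 83.2, 230.4, 180.3 and 172 in control fibroblasts, and those of the second 50.1, 59.7, 50.6 and 31.1 and 21, 67.8, 41.9 and 39.9. For the first probe all 4 males lay above all 4 females, and for the second mutant mouse 34, a female, lay among the males.

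The strain difference was also taken within each sex. Within females (2 mice against 2) 42 of the 50 member probes were higher in Nd2-mutant fibroblasts (84%, against 53.1% of all tested probes), with a median log2 difference of 0.26. Within males 22 were higher (44%, against 47.2%), with a median of -0.04. The female controls were mice 15 and 37, the 2 arrays that were most often lowest for the members, so that sex and these arrays cannot be told apart.

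A term for the interaction of strain and sex had an unadjusted p under 0.05 for 2 member probes (1.77% of all tested probes), and none passed after adjustment (smallest adjusted p 0.9999 in limma). Glrx differed by log2 0.87 within females and -0.04 within males (interaction -0.91, SE 0.39, limma unadjusted p = 0.0483). Txn2 differed by 0.38 within females and -0.45 within males (interaction -0.83, SE 0.34, limma unadjusted p = 0.0393). Txnrd1 (-0.54 and -0.46) and Txnrd2 (-0.36 and -0.35) were lower in Nd2-mutant fibroblasts of each sex.

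**Figure D4:**
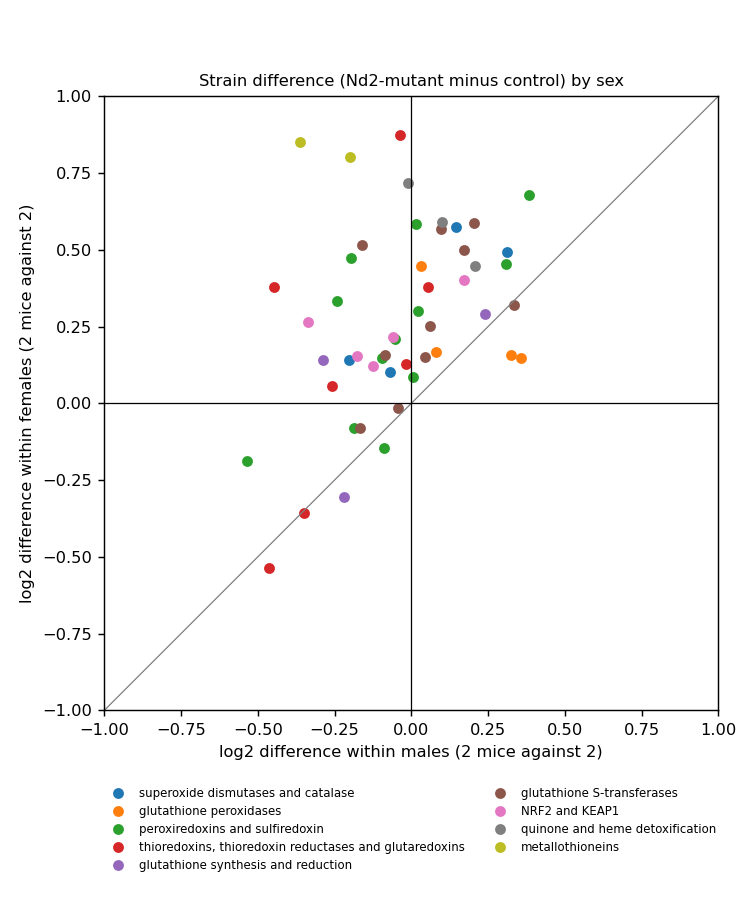
Each point is 1 of the 50 tested member probes, with its log2 difference (Nd2-mutant minus control) within males on the x axis and within females on the y axis, coloured by gene group; the grey diagonal marks equal differences. Of the 50 points, 43 lie above the diagonal, and the Txnrd1 and Txnrd2 points are near it at the lower left.

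Genes around the same pathways were taken from lists of 111 other genes, also chosen with earlier results of these data known. Of these genes, 104 were on the array and 73 were tested with 90 probes. None passed after adjustment in limma, and 12 probes (13.3%, against 7.63% of all tested probes) had an unadjusted p under 0.05, 10 of them higher and 2 lower in Nd2-mutant fibroblasts. The strains did not overlap for 8 of the 90 probes (8.89%, against 4.37% of all tested probes), and the median log2 difference over the 90 was 0.01.

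Among genes that supply NADPH or belong to the pentose phosphate pathway, 2 had an unadjusted p under 0.05, G6pdx and Idh1. G6pdx, the first enzyme of the pentose phosphate pathway, had 248, 234, 351 and 324 in Nd2-mutant and 122, 115, 224 and 203 in control fibroblasts, without overlap (log2 difference 0.78, SE 0.23, limma unadjusted p = 0.00652, adjusted p = 0.639). Idh1, the cytosolic NADP-dependent isocitrate dehydrogenase, had 1197, 806, 1012 and 881 in Nd2-mutant and 247, 430.2, 856 and 667 in control fibroblasts, where only control mouse 17 overlapped and control mouse 15 was lowest (log2 difference 0.93, SE 0.32, limma unadjusted p = 0.0159, and 0.61 without control mouse 15). The later enzymes of the pathway gave 0.05 (SE 0.14) for Pgd, -0.17 (SE 0.16) and 0.11 (SE 0.18) for 2 probes of Tkt, and -0.24 (SE 0.21) for Taldo1, which was -0.44 with a limma unadjusted p = 0.0155 without control mouse 15.

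Of the other glutathione enzymes, Mgst1, a membrane-bound transferase, was higher by log2 0.68 (SE 0.18) and 0.55 (SE 0.21) with its 2 probes, and Gpx8, a peroxidase of the endoplasmic reticulum like Gpx7, by 0.38 (SE 0.15) and 0.38 (SE 0.17). The stress-induced Sesn2 was higher by 0.47 (SE 0.17) and 0.33 (SE 0.13), the zinc exporter Slc30a1, a target of MTF1, by 0.40 (SE 0.14), and 1 of 2 probes of Sepp1, a selenium carrier, by 0.78 (SE 0.31). The other Sepp1 probe went the other way, with -0.10 (SE 0.25). Both probes each of Mgst1, Sesn2 and Sepp1 were highest in Nd2-mutant mouse 35, the mouse with the macrophage marker sum of 2111, whose part was not tested. So were the Slc30a1 probe and the Gpx8 probe with an SE of 0.15. Without that mouse, limma gave 0.51 (unadjusted p = 0.0912) for the higher Sepp1 probe and 0.58 (unadjusted p = 0.0117) and 0.37 (unadjusted p = 0.0717) for Mgst1. For Slc30a1 it gave 0.35 (limma unadjusted p = 0.0472) without that mouse. The unadjusted p of both Gpx8 and both Sesn2 probes was above 0.05 without mouse 35 (0.0688, 0.0791, 0.0511 and 0.101 in limma).

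The 2 lower probes were that of Slc3a2, the heavy chain of the cystine transporter, by -0.61 (SE 0.23), and 1 of 2 probes of Sepx1, a selenium-dependent methionine sulfoxide reductase, by -0.44 (SE 0.19). The other Sepx1 probe went the other way, with 0.23 (SE 0.28). Slc3a2 had 29.3, 51.7, 44.8 and 60.2 in Nd2-mutant and 119, 82.1, 72 and 50.4 in control fibroblasts, with control mouse 37 inside the mutant range. Without control mouse 15 the Slc3a2 difference was -0.44 (limma unadjusted p = 0.0585), and without Nd2-mutant mouse 35 that of the lower Sepx1 probe was -0.38 (limma unadjusted p = 0.111). The partner of Slc3a2, Slc7a11, which carries the cystine, had 69, 88.5, 61 and 48.3 in Nd2-mutant and 60.9, 98.8, 79.9 and 38.2 in control fibroblasts, with full overlap.

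**Figure D5:**
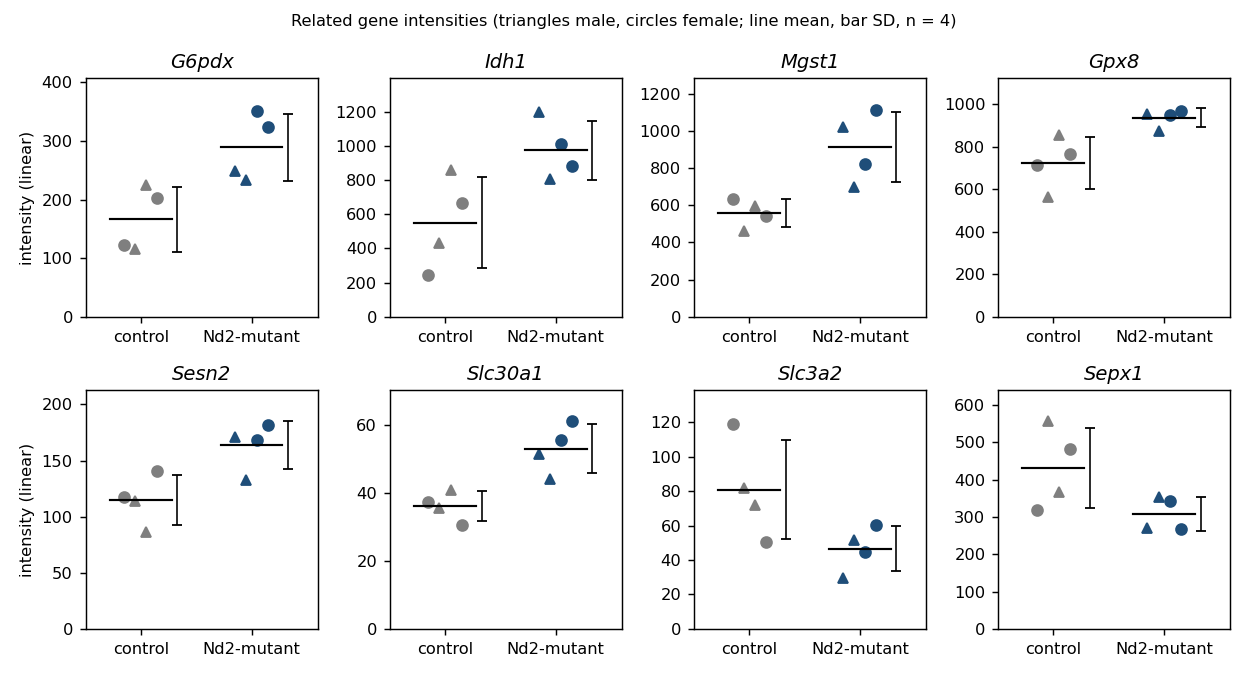
Linear intensities of 8 genes outside the 38 that had an unadjusted p under 0.05, by strain, with 1 point per mouse (triangles males, circles females), a line at the mean and a bar for the SD (n = 4). The first 6 panels are higher and the last 2, Slc3a2 and Sepx1, lower in Nd2-mutant fibroblasts; G6pdx, Slc30a1 and the probes shown for Mgst1 and Gpx8 do not overlap between the strains.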

How the data were processed

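Skin fibroblasts of 4 Nd2-mutant and 4 control mice were measured on 8 arrays, 1 per mouse, with groups, sexes and mouse numbers from the sample labels. Quantile normalization and background subtraction were done by the authors in GenomeStudio, which gave the deposited intensity on a linear scale. Beside each intensity stands a deposited detection p-value from that software. The 2 deposited tables hold the same normalized values, so no other background correction or normalization could be tried. Quantile normalization gives all arrays 1 distribution (largest difference of sorted intensities 0.147), which removes any shift shared by all probes; 26.2% of values were 0 or lower.

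Tests used log2(intensity + 16), with negative intensities taken as 0. Probes detected at a p-value under 0.01 on all 4 arrays of at least 1 strain (10414) went into 2-sided tests by lmFit and eBayes of limma 3.58.1 (R 4.3.3); p-values were adjusted over all of these probes by the Benjamini-Hochberg method, with a threshold of 0.05. Each probe was kept apart. For single probes an exact permutation test over the 70 splits of the mice was added. Sex was tested in a fit that held strain, and their interaction in another fit. The steps were tested on simulated data. The number of arrays limits the precision.

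The members and lists were chosen with earlier results of these data known. Per-mouse values are given for members with an unadjusted p under 0.05 for strain, sex or interaction, with no overlap of the strains, or named by the study among its lower genes (Prdx1, Txnrd1, Txnrd2), and for Nfe2l2, Keap1, Nqo1, Hmox1, Gclm, Sod2, Cat, Gpx1, Mt1 and Mt2. Gclc is given by its ranges. Prdx3, Gstm5 and Hmox2 were added after their values were seen. Of the related lists the genes with an unadjusted p under 0.05 are named. From those lists Slc7a11, with per-mouse values, and Pgd, Tkt, Taldo1 and Txnrd3, with differences only, were also added after their values were seen. Promoter entries were matched by symbol; Gsta4, Gclc, Prdx6, Hmox1, Sod3 and Gsr had none.

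Alternatives were 1 or 50 added before log2, linear intensities, other filters on detection, and the methods' t-test on the log2 values. Others were a trend in eBayes, array weights, sex as a term, arrays centred on their median, each sex alone, and leaving out mice.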

Additional observations from a re-analysis of the deposited data

Results flagged for a closer look

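Each strain's 4 values of the 50 tested member probes were checked for a mouse apart from the other 3, by the gap to the nearest mouse over the group's range (Dixon's ratio). Of 100 groups checked, 7 had such a mouse, where chance gives about 5 at 1 in 20, and 3 of the 7 were control mouse 15. Control mouse 15 was lowest for Gpx1 (ratio 0.836), Hmox2 (0.846) and the brightest Prdx2 probe (0.850). Nd2-mutant mouse 35 was lowest for Gpx1 (0.829) and highest for Mt2 (0.841) and Sod1 (0.888). Nd2-mutant mouse 34 was highest for a Glrx2 probe (0.919), at an intensity of 31.8 against 25.2 to 25.7 in the other mutant mice. For Gpx1 each strain thus had 1 mouse far below the others, 1289 in Nd2-mutant mouse 35 and 613 in control mouse 15, against 1918 to 2173 in the remaining 6.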

How the results depend on the processing

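No member probe passed an adjusted p of 0.05 under any alternative run. The methods' t-test, run here on the log2 values, gave 4 member probes at an unadjusted p under 0.05 and none after adjustment. The study's listed coefficient for Prdx1 (-450.589) equals the difference on linear intensities, against a log2 difference of -0.13 in the t-test here. The t-test run here is therefore not a repeat of the study's own test. The 4 probes at an unadjusted p under 0.05 in limma (2 higher, 2 lower) were 2 (1 higher, 1 lower) with a trend in eBayes (7.73% of all tested probes) and without control mouse 15 and Nd2-mutant mouse 35 together (5.66%), 0 (0 higher, 0 lower) with males only (4.82%) and 1 (1 higher, 0 lower) with females only (3.04%). The higher probes alone were 1 with 1 added before log2, with probes detected on at least 1 array, or with sex as a term. Counts printed here without a share over all probes describe single probes and not the members as a set. Leaving out 1 mouse at a time gave 1 to 8 probes (0 to 5 higher, 1 to 3 lower). The lowest total was without Nd2-mutant mouse 35 and the highest without control mouse 17.

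The 4 probes without overlap became 14 with males only (34.6% of all tested probes), 25 with females only (32.9%), 7 without control mouse 15 and Nd2-mutant mouse 35 together (11.6%), and 4 to 10 when 1 mouse was left out, fewer mice giving less chance of overlap. The median log2 difference of 0.13 was -0.039 with males only and 0.26 with females only, and 0.06 to 0.19 when 1 mouse was left out. With no filter on detection, all 61 member probes entered in place of 50. Of these, 6 differed between the sexes at an unadjusted p under 0.05 in limma. With 1 added before log2, 1 member probe had an interaction at that threshold. Counts in this paragraph that stand without a share over all probes describe single probes and not the members as a set.

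Of the 50 probes, 30 kept their direction in every fit that left out 1 mouse. With males only 13 of the 50 probes and with females only 7 had the opposite direction to all mice. Among the member probes whose differences are printed above, these were with males only Glrx (-0.037), Hmox1 (-0.0099), Mt1 (-0.20), Mt2 (-0.36) and the Srxn1 probe with a difference of 0.03 (-0.10), and with females only Txn2 (0.38). Array weights gave -0.10 for Gpx1 and -0.12 for that Srxn1 probe, and leaving out control mouse 15 and Nd2-mutant mouse 35 together gave -0.031 and -0.12. On linear intensities that Srxn1 probe differed by -3.52. Leaving out 1 mouse at a time gave -0.19 to 0.41 for Gpx1, -0.019 to 0.49 for Mt1, -0.089 to 0.43 for Mt2, -0.040 to 0.35 and -0.24 to 0.20 for the Srxn1 probes with differences of 0.16 and 0.03, and -0.22 to 0.083 for Txn2; the cause was not tested. The Txnrd1 and Txnrd2 probes reversed under none of these.

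No paired analysis was possible because no mouse number occurs in both strains. Normexp with quantile normalization and a chip block were not run, since the values were already normalized and no chip is named. Dim probes such as Txnrd1 and Gclc lie near the background, where differences are least certain.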
